A study of Drosophila melanogaster with 2 samples.

Results

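The intergenic binding sites of the fly protein CG14441 are described here. They come from the authors' conservative peak set for the whole series. A peak was taken as intergenic where its summit, the base of highest signal, lay outside every protein-coding gene body and more than 500 bp from any protein-coding transcription start (TSS). By this rule 823 of the 5115 peaks on the 6 main chromosome arms were intergenic, 16.1% of them (95% exact Clopper-Pearson interval 15.1 to 17.1). The whole set held 5116 peaks. The measure was chromatin immunoprecipitation followed by sequencing (ChIP-seq) of whole Drosophila melanogaster embryos aged 0 to 24 h. The embryos, of the strain CG14441-GFP, carried a transgene for CG14441 fused to eGFP. The labels differ on the antibody: the description says that it was against GFP, and the antibody field reads CG14441. There was 1 group with 2 biological replicates and no other genotype, age or treatment, so the intergenic peaks are set against the other peaks and against the genome. The labels name the transgene as an insertion for CG14441 and give neither its promoter nor its level, and whole embryos mix all cell types and a full day of ages. The labels call the replicates biological and number them 1 and 2.

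DNA between genes carries much of the regulation of the fly genome: core promoters lie at gene starts, and enhancers, insulators and Polycomb response elements lie farther out. Long non-coding RNA genes (lncRNAs) and genes of small RNAs also lie between protein-coding genes, with start sites of their own. A site far from every protein-coding TSS can therefore still lie at a promoter, that of an RNA gene. In ChIP-seq a peak marks DNA recovered with the tagged protein, whether the protein touches that DNA itself or is held there by another factor.

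Some sequences show what the intergenic peaks looked like. The 8 sequences below run from 50 bases before to 50 bases after the summits of the strongest intergenic peaks found in both replicates on the arms 2L, 3L, 3R and X. They come from RefSeq's dm6 genome, 5′ to 3′, each named by the protein-coding genes on its left and right. Capitals mark matches, on either strand, to the 5 listed motifs that gained most at summits over all peaks: the TATA box word TATAAA, runs of 7 A bases or more, the word CGATA, the homeodomain word TAATTA, and GATAAG, which GATA factors bind.
mtSSB to tara, chr3R:16222447-16222547, plus strand: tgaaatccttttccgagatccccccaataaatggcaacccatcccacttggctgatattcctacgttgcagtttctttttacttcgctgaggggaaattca
CG4004 to Paics, chrX:12751352-12751452, plus strand: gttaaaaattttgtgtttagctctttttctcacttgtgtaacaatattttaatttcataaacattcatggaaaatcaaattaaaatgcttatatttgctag
RFeSP to chinmo, chr2L:1632794-1632894, plus strand: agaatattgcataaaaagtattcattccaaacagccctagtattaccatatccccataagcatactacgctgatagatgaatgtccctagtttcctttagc
Cyt-c1L to eEF1gamma, chr3R:29214404-29214504, plus strand: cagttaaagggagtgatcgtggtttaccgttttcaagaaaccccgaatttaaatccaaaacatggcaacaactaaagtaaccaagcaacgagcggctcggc
CG4004 to Paics, chrX:12752313-12752413, plus strand: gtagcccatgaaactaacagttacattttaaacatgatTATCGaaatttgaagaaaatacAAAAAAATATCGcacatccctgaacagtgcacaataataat
CG9922 to foxo, chr3R:14053543-14053643, plus strand: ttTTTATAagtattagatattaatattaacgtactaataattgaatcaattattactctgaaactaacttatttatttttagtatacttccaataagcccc
RFeSP to chinmo, chr2L:1638739-1638839, plus strand: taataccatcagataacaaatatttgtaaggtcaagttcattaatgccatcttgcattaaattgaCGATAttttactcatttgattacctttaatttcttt
COX7AL2 to CG31668, chr2L:2202356-2202456, plus strand: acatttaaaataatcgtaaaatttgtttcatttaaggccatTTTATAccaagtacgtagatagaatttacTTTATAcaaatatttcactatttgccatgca
A + T made up 55.4% of the mtSSB to tara and the Cyt-c1L to eEF1gamma windows, and 79.2% of the CG9922 to foxo window. None of these 5 words occurred in 4 of the 8 windows.

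The 8 sequences of the next set show CAGTGCA, a word with far more copies near intergenic summits than in their flanks. They are the strongest intergenic peaks in both replicates with CAGTGCA and the bases TTT 7 to 5 positions before it, within 150 bp of the summit, on the same arms. Each is 41 bases of dm6, turned so that the word reads CAGTGCA, with the word and its TTT in capitals. The word and the spacing were picked after their counts had been seen.
CG4004 to Paics, chrX:12752423-12752463, plus strand: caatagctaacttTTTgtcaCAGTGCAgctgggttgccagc
CG6168 to CG6163, chr3L:11353118-11353158, minus strand: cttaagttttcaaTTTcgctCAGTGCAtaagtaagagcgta
Doc2 to Doc1, chr3L:9025789-9025829, minus strand: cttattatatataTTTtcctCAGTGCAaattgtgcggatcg
CG44362 to CG7560, chr3L:11416899-11416939, minus strand: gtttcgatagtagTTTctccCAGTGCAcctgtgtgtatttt
Cpr65Eb to Cpr65Ec, chr3L:7091039-7091079, plus strand: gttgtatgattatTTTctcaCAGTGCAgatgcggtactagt
ems to Art9, chr3R:13914977-13915017, plus strand: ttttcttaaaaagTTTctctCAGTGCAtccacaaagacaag
E(spl)mbeta-HLH to E(spl)malpha-BFM, chr3R:26009084-26009124, plus strand: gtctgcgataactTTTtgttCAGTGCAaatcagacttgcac
aop to CG10874, chr2L:2180160-2180200, minus strand: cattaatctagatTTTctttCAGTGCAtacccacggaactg
In 7 of these 8 the word lay 57 to 94 bp from the summit with the summit on its 5′ side. In the peak between E(spl)mbeta-HLH and E(spl)malpha-BFM, 2 genes switched on by Notch signalling, it lay 37 bp away on the other side.

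The intergenic peaks had lower signal than promoter peaks and were close to peaks inside genes. Each signal is the authors' own score of a peak, on a scale the sources do not name, and serves here to rank and compare peaks within a list. Its median was 105 for intergenic peaks, with the middle 50% of peaks between 78.1 and 165. It was 130 for the 2141 promoter peaks, those with a protein-coding TSS at most 500 bp from the summit, and 109 for the 2151 peaks inside genes and farther from a TSS. The median of intergenic peaks was 0.884 times that of all other peaks. In the replicates' own signals at the same peaks this ratio was 0.860 in replicate 1 and 0.896 in replicate 2. Of the 100 strongest peaks 10 were intergenic, and of the 500 strongest 59 were.

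The replicates gave similar signals at intergenic peaks. Peaks entered the conservative set through a limit on their recurrence between these replicates, so this similarity is in part built in. Both replicates listed a candidate at 818 of the 823 peaks, with a median signal of 54.8 in replicate 1 and 53.1 in replicate 2. Across these peaks, which share their libraries, the rank correlation between replicates was 0.771, against 0.808 over all 5082 peaks with both values. The SD of the 2 replicates was 12.8% of their mean at the median intergenic peak and 14.4% over all peaks.

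About as many intergenic peaks failed as passed the stricter requirement of a thresholded peak in both replicates. Of the 823 intergenic peaks 399 (48.5%, interval 45.0 to 52.0) overlapped a thresholded peak of both replicates, against 55.4% of all peaks and 56.7% of the other peaks. A further 114 overlapped one of replicate 1 alone and 93 one of replicate 2 alone, while 217 (26.4%) overlapped neither, against 21.0% of all peaks. Peak strength went with this: in the stronger 2557 peaks of the set, 90.7% of the intergenic peaks and 93.0% of all peaks were in both. Among the weaker 2558, 15.03% of the intergenic peaks and 17.9% of all peaks were. The median signal was 167 for intergenic peaks in both replicates and 73.6 for those in neither. Each replicate's own thresholded set gave nearly the same intergenic share, 576 of 3768 peaks (15.3%) in replicate 1 and 583 of 3939 (14.8%) in replicate 2.

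Candidates between genes reached the set less often than candidates elsewhere. The authors' ranked series list held 27641 intergenic candidates, of which 823 (2.98%) were in the conservative set, against 4.21% of all 121431 candidates and 4.58% of the candidates elsewhere. Each peak of the set had an irreproducible discovery rate (IDR), an estimate of how likely a peak of that rank is not to recur between replicates, of at most 0.01. A further 119 candidates met that limit outside the set, 14 of them intergenic. The intergenic share was 16.1% in the conservative set and 23.1% among the candidates outside it. The territory that fits the rule, all bases outside protein-coding genes and over 500 bp from a protein-coding TSS, made up 29.99% of the arms.

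The strongest intergenic peak lay between Su(z)2, a Polycomb group gene, and CG13323, at chr2R:13035184-13035479. Its series signal was 1821, and its signal was 999 in replicate 1 and 832 in replicate 2 (916 ± 118, SD, n = 2). It ranked 13 among all peaks of the set. Its nearest protein-coding TSS, that of CG13323, was 11913 bp away. A related Polycomb gene in the same region, Psc, had the peak of rank 10 among the intergenic ones, 4220 bp upstream of its TSS at chr2R:12985098-12985343. That peak had 434 in replicate 1 and 397 in replicate 2 (415 ± 26.2, SD, n = 2). It lay 153 bp from the lncRNA gene CR44339.

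The peak of rank 2 lay 3154 bp upstream of tara, which encodes a Trithorax group protein, at chr3R:16222343-16222638. It had 919 in replicate 1 and 722 in replicate 2 (821 ± 139.8, SD, n = 2). The gap to its other neighbour mtSSB, the mitochondrial single-strand DNA binding protein, held 4 intergenic summits. The peak of rank 5, at chr3R:29214307-29214582, lay 5718 bp upstream of the translation factor gene eEF1gamma and 108 bp from the lncRNA gene CR31044. It had 474 in replicate 1 and 532 in replicate 2 (503 ± 40.9, SD, n = 2), and was the single peak among the strongest 15 in which replicate 2 was the higher.

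**Figure D1:**
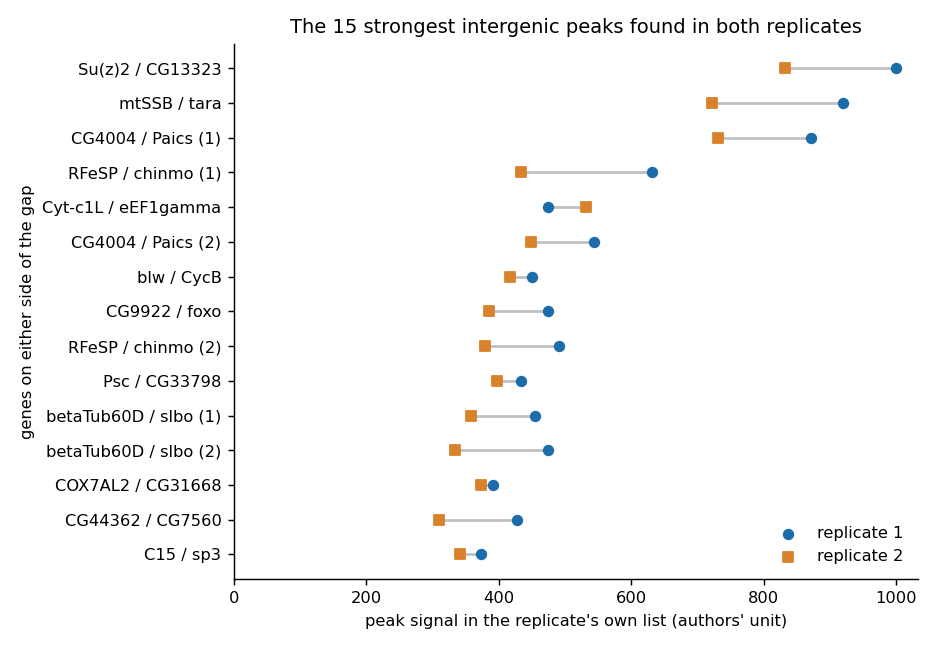
Signal in each replicate's own ranked list (horizontal axis, authors' unit) for the 15 strongest intergenic peaks found in both replicates, each named by the protein-coding genes on either side (vertical axis); circles are replicate 1 and squares replicate 2. The peak between Su(z)2 and CG13323 stands highest, at 999 in replicate 1 and 832 in replicate 2, and replicate 1 is higher at every peak but that between Cyt-c1L and eEF1gamma.

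Further strong sites lay upstream of a gene or between gene ends. The peak at chr3R:14053445-14053727 lay 3352 bp upstream of foxo, the forkhead transcription factor of insulin signalling, with 474 in replicate 1 and 386 in replicate 2 (429.8 ± 62.3, SD, n = 2). The peak at chr2R:22802842-22803091 lay in a short gap of 1340 bp between blw, the ATP synthase alpha subunit, and CycB, a mitotic cyclin. It lay 549 bp beyond the 3′ end of CycB and had 450.0 in replicate 1 and 416 in replicate 2 (433 ± 23.9, SD, n = 2). The remaining peaks of the 15 lay near betaTub60D and slbo, COX7AL2 and CG31668, CG44362 and CG7560, and C15 and sp3. Their mean signals over the replicates ran between 357 and 407.

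A pair of gaps held several of the strongest sites. Between RFeSP, a subunit of the mitochondrial cytochrome bc1 complex, and chinmo, a BTB zinc finger factor of neuronal timing, 11 intergenic summits stood in 37097 bp, and 10 of these were in both replicates. The strongest, at chr2L:1632689-1632961, had 632 in replicate 1 and 434 in replicate 2 (533 ± 140.1, SD, n = 2). The next, at chr2L:1638600-1638964, had 492 in replicate 1 and 379.9 in replicate 2 (436 ± 78.9, SD, n = 2). They lay 18414 and 12469 bp upstream of the chinmo TSS. Between CG4004 and Paics, an enzyme of purine synthesis, 8 summits stood in 7250 bp, 1103 per Mb of territory against 20.5 per Mb over the whole territory. Some of these peaks overlap one another, so this density does not count separate stretches of DNA. Of the 8, 6 were in both replicates, and the weakest had a series signal of 11.5. The strongest of these 8 had 871 in replicate 1 and 732 in replicate 2 (801 ± 98.8, SD, n = 2).

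Some intergenic summits shared a gap with others. They lay in 505 of the 10436 gaps between protein-coding genes. Of these gaps 358 held 1 summit, 84 held 2 and 63 held 3 or more, and the last kind contained 297 summits, 36.1% of all. Another peak summit of the set, of any class, lay within 1 kb of 197 intergenic summits (23.9%) and within 10 kb of 575 (69.9%). The same shares over all peaks were not computed, and the part of gap length in these counts was not tested. Some neighbours share 1 stretch of DNA: 56 intergenic peaks (6.80%) overlapped another peak of the set, against 7.25% of all peaks, and all 23 intergenic peaks with a signal under 30 were among them.

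The gap with the most summits lay between hng3 and CG13898 on 3L, with 14 summits in 47937 bp, of which 8 were in both replicates. Its strongest peak, at chr3L:781223-781458, had 313 in replicate 1 and 287 in replicate 2. Replicate 1's own set had 11 peaks in that gap and replicate 2's had 7. The gap between CG44362 and CG7560 held 8 summits in 27292 bp, and that between NijA and CG43245 held 8 in 75047 bp. The same count stood in the gap from CG16721 to the actin gene Act5C, with 8 summits of which 2 were in both replicates.

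**Figure D2:**
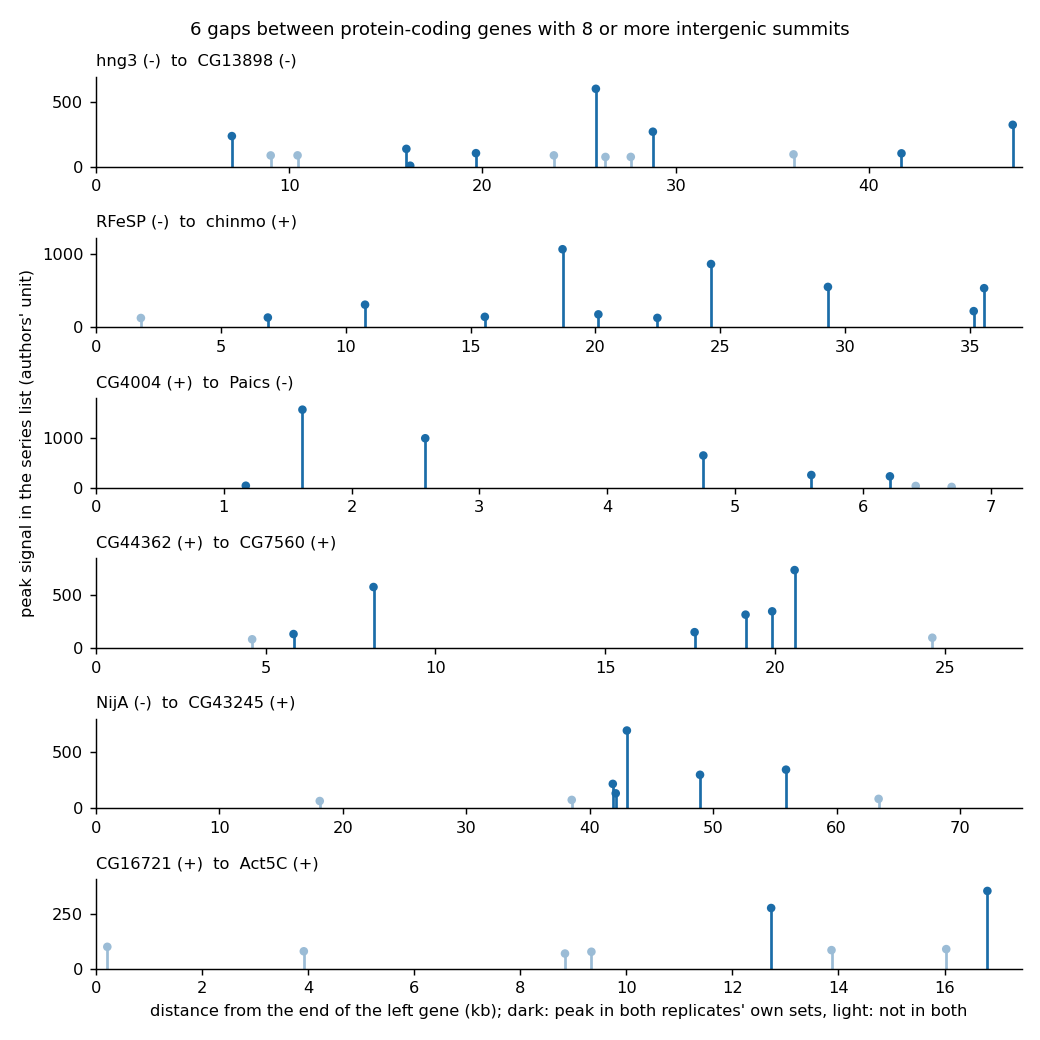
Series signal (vertical axes, authors' unit) of each intergenic peak against its distance in kb from the end of the left-hand gene, in 6 gaps with 8 or more intergenic summits; plus and minus signs are gene strands, dark lines are peaks in both replicates' own sets and light lines are not. In the RFeSP to chinmo gap 10 of 11 peaks are dark, and in the hng3 to CG13898 gap 8 of 14 are.

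Even beyond the 500 bp limit, intergenic summits crowded toward protein-coding starts. The median distance to the nearest protein-coding TSS was 4036 bp, with the middle 50% between 1588 and 9203 bp and the farthest at 68418 bp. In the band of 500 to 1000 bp lay 14.2% of the summits (11.9 to 16.8) and 5.65% of the territory's bases. In the band of 1 to 2 kb lay 17.4% of the summits and 9.32% of the territory. The shares were closer from 5 to 10 kb, with 20.2% of the summits and 19.2% of the territory. Beyond 20 kb lay 7.17% of the summits (5.50 to 9.15) and 27.5% of the territory. The density was 51.6 summits per Mb in the nearest band and 5.34 per Mb in the farthest.

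The far bands are also richer in repeats. Annotated transposable elements covered 3.76% of the nearest band and 15.6% of the farthest. Outside these elements the density was 53.1 per Mb in the nearest band and 6.23 per Mb in the farthest. How well reads can be placed in each band was not tested. The share of the authors' candidates that reached the conservative set was 5.86% in the nearest band and 2.06% in the farthest. Median signal was 112 at 500 to 1000 bp, 118 at 1 to 2 kb and 91.3 beyond 20 kb. Of all intergenic summits 547 (66.5%) lay upstream of the nearest TSS and 276 (33.5%) downstream of it, past the end of its gene. The rule leaves out gene bodies, which lie downstream of a TSS, and the same split of the territory was not computed. These shares therefore show no preference for either side.

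Just beyond the limit, the nearest members lay 502, 502 and 503 bp from the TSSs of CG7080, CG6602 and CG34054, with series signals of 80.5, 144 and 91.6. Just within it, the nearest peaks outside gene bodies, at 499, 497 and 496 bp, had 911, 114 and 152. The limit thus falls within a continuous range of distances.

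The sites most remote from a protein-coding TSS were of moderate strength. Of the intergenic peaks in both replicates, that farthest from a protein-coding TSS lay 37655 bp from the TSS of bab2, which encodes a BTB factor of limb patterning, in the gap between bab1 and bab2. It lay 808 bp beyond the 3′ end of bab2, and had 70.9 in replicate 1 and 66.0 in replicate 2 (68.4 ± 3.45, SD, n = 2). The others lay 35747 bp from CG31797 in the gap beside drl, a Wnt receptor, 33874 bp from vvl, a POU transcription factor of trachea and brain, and 33180 and 32943 bp from CG43245. Their mean signals ran between 41.7 and 114.9. The last 2 summits are 237 bp apart.

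Gaps between genes that point away from each other held more than their share of summits. Of the intergenic summits 272 (33.0%, interval 29.8 to 36.4) lay between divergent genes, which took 23.7% of the territory. In the replicates' own sets this share was 34.7% and 35.3%. Between genes in tandem lay 388 summits (47.1%) and 49.8% of the territory, and between convergent genes 163 summits (19.8%) and 21.8%. No summit lay in the stretches at arm ends, 4.73% of the territory, which hold 12.5% transposable elements and 124 candidates. Short gaps also held more than their share: 187 summits (22.7%) lay in gaps of at most 5 kb, which took 9.44% of the territory, and 76 (9.23%) in gaps above 50 kb, which took 33.5%. A gap between divergent genes has a TSS at each end, so orientation, gap length and the distance to a TSS are not independent.

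**Figure D3:**
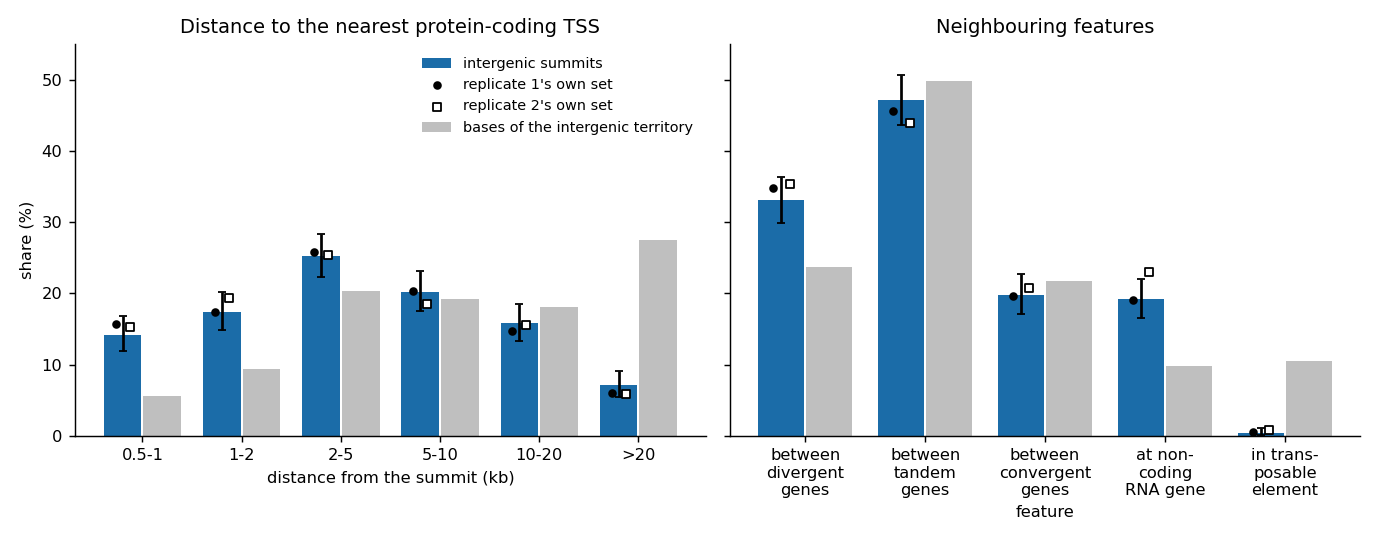
Share in percent (vertical axis) of the 823 intergenic summits (blue bars, 95% exact intervals) and of the bases of the intergenic territory (grey bars), by distance to the nearest protein-coding TSS in kb (left) and by neighbouring feature (right); circles and squares are the intergenic summits of replicate 1's and replicate 2's own sets. The interval for summits lies above the territory in the bands below 5 kb, between divergent genes and at non-coding RNA genes (19.2% against 9.73%), and below it beyond 20 kb and in transposable elements. The intervals treat summits as independent, although some share a gap or an RNA gene or overlap, so they are too narrow to serve as a test.

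Non-coding RNA genes were the neighbours of a substantial part of the intergenic peaks. Of the 823 summits 99 (12.03%, interval 9.89 to 14.4) lay inside a non-coding RNA gene, against 6.65% of the territory. With a margin of 500 bp the count was 158 (19.2%, interval 16.6 to 22.1), against 9.73% of the territory. The same share was 19.1% in replicate 1's own set and 23.0% in replicate 2's. Summits within 500 bp of a non-coding RNA TSS numbered 73 (8.87%), against 3.69% of the territory. Among candidates, 4.52% of those at a non-coding RNA gene and 2.98% of all intergenic ones were in the conservative set. The median distance to the nearest non-coding RNA gene was 6578 bp.

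Long non-coding RNAs made up most of this group, with 145 of the 158 summits. In all, 61 of the 1409 lncRNA genes that reach into the territory had a summit inside. The strongest was lncRNA:Vinr on the X, at chrX:12751213-12751580, the CG4004 to Paics peak given above. The next gene along, lncRNA:CR44619, held peaks of 496 ± 67.9 and 323 ± 65.4 (mean over replicates, SD, n = 2). On 2R, lncRNA:CR44810 beside slbo, a C/EBP factor of border cell migration, held peaks of 407 ± 67.8 and 404 ± 99.5 (SD, n = 2). The peak in lncRNA:CR31840, between NimC3 and hll, had 209 in replicate 1 and 394 in replicate 2, the widest spread of the 8 strongest inside such genes. The others of these 8 lay in lncRNA:CR44363 (287 ± 37.3) and in lncRNA:CR32773 (192 ± 79.3), a gene of 223710 bp beside peb, a zinc finger gene of embryonic and eye development.

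The lncRNA gene with the most summits inside was CR43334, which also contains the bantam microRNA, with 8, of which 5 were in both replicates, followed by CR45668 beside Act5C with 7, of which 1 was. The first is 15466 bp long and the second 17510 bp.

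Few summits lay near genes of small RNAs, whose surroundings also took little of the territory. These peaks were named after their values were seen. For microRNAs there were 4: 438 bp from mir-275 (series signal 114.7), a pair of overlapping peaks at mir-34, which is encoded beside mir-277 (98.0 and 41.04), and 478 bp from mir-ban, the growth-promoting bantam microRNA (90.0). Of these, the peaks at mir-275 and mir-34 were in both replicates and that at mir-ban was not. Bases within 500 bp of microRNA genes took 0.169% of the territory, and 0.486% of the summits lay there. For spliceosomal and other small nuclear RNAs there were also 4. They lay at snRNA:U6:96Ac (134), inside snRNA:U2:34ABb (95.6), inside snRNA:7SKa (90.7) and 44 bp from snRNA:U1:21D (77.4). The first of these was in both replicates. Bases within 500 bp of small nuclear RNA genes took 0.0271% of the territory, and 0.486% of the summits lay there. All 4 had a higher signal in replicate 2, for instance 49.7 in replicate 1 and 87.3 in replicate 2 at snRNA:U6:96Ac.

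Summits within 500 bp of a small nucleolar RNA gene also numbered 4, led by a peak of 180 ± 41.3 (mean over replicates, SD, n = 2) at chr2R:9095083-9095294. That peak lay 67 bp from Uhg4, a host gene of small nucleolar RNAs, and 548 bp from the TSS of Boot. Another lay 145 bp from the host gene Uhg5. Within 500 bp of small nucleolar RNA genes lay 0.486% of the summits and 0.0580% of the territory. Antisense RNA genes had 3 summits within 500 bp (0.365%, against 0.351% of the territory). The strongest lay 378 bp from asRNA:CR45281 with 215 in each replicate. Transfer RNA genes had 2 summits within 500 bp (0.243%, against 0.251% of the territory). They lay at tRNA:Ala-TGC-2-1 and at tRNA:Pro-TGG-1-1, and neither was in both replicates. No summit lay within 500 bp of a ribosomal RNA gene, against 0.113% of the territory.

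Transposable elements were nearly empty of summits. Only 3 of the 823 intergenic summits (0.365%, interval 0.0752 to 1.06) lay inside an annotated element, against 10.50% of the territory. These elements were of different families, INE-1 and H among them, and the peak in INE-1 was in both replicates. Reads from repeats often cannot be placed, and the part of this in the count was not tested. Arms differed less: the density per Mb of territory was 23.9 on 2L, 18.5 on 2R, 21.9 on 3L, 19.6 on 3R and 19.0 on the X. Chromosome 4 had no intergenic peak in the conservative set and 5 in replicate 2's own set.

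Genes of embryonic patterning often bordered a gap with an intergenic summit, as did genes with long gaps in general. Over all protein-coding genes 929 of 13945 (6.66%) did. The share was 2.89% for genes whose longer neighbouring gap was at most 5 kb, 19.6% at 5 to 20 kb, 36.0% at 20 to 50 kb and 35.3% above 50 kb. Each list below is therefore given with its median longer gap.

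Among Hox genes and their cofactors 4 of 10 bordered such a gap (median longer gap 18942 bp): abd-A, hth, Dfd and Scr. Beyond the 3′ end of abd-A, which sets abdominal identity, the strongest peak had 156 in replicate 1 and 88.8 in replicate 2. Of the segment polarity and signalling genes 7 of 19 did (14310 bp), led by the Hedgehog receptor ptc (series signal 250.2), the BMP ligand dpp (187), the Wnt receptor fz (137) and Wnt4, which shares its gap with wg (125.4). Of the neural and homeodomain factors 6 of 19 did (12066 bp), led by ems, with a peak of 138 in replicate 1 and 133 in replicate 2, then zfh1, dac and Dr. These shares are 40.0% (exact interval 12.2 to 73.8), 36.8% (16.3 to 61.6) and 31.6% (12.6 to 56.6), from few genes each. The shares over all genes, 19.6% for longer gaps of 5 to 20 kb and 36.0% for 20 to 50 kb, lie within these intervals.

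Of the maternal, gap and pair-rule genes 5 of 18 did (27.8%, 13236 bp). The peak between slp1 and slp2, a pair of forkhead genes of segmentation, had 217 in replicate 1 and 196 in replicate 2. It was followed by odd (166), kni (118) and ftz (82.9). Of the dorsal-ventral and mesoderm genes 4 of 14 did (28.6%, 6927 bp): bin (205), sog (191), how (107) and twi (70.4), the last the mesoderm determinant twist. Of the list of neurogenic and proneural genes, which also holds the glial gene repo, 3 of 16 did (18.8%, 5301 bp). These were E(spl)mbeta-HLH, E(spl)m3-HLH and repo. Of 12 genes of gut, trachea and other tissues vvl, with 8 summits in its gaps, and CrebA did (16.7%, 11004 bp). The exact intervals of these 4 lists also hold 19.6%.

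Lists with short median gaps varied. For genes whose longer gap was at most 5 kb the share over all genes was 2.89%. Gaps were not matched gene by gene, and single genes of these lists border longer ones. The gap of the Or85b peak was 32459 bp long and that of the Cpr76Ba peak 13681 bp. None of 73 mitochondrial ribosomal protein genes (median longer gap 302 bp) and none of 13 insulator and architectural protein genes (462 bp) bordered a gap with a summit. Of 86 cytoplasmic ribosomal protein genes 4 did (4.65%): RpL17, RpS15Aa, RpS23 and RpLP0. Of 17 Polycomb and Trithorax group genes 3 did (17.6%, interval 3.80 to 43.4), Psc and the adjacent pair ph-d and ph-p. The median longer gap of that list was 661.5 bp. Its count does not include Su(z)2 and tara, which border the gaps of the intergenic peaks of rank 1 and rank 2. The share therefore holds for the listed genes and not for every Polycomb and Trithorax group gene. Odorant and gustatory receptor genes had 10 of 119 (8.40%), led by Gr89a (370) and Or85b (182), then Gr93a and Gr93b, which share a peak. Cuticular protein genes had 13 of 96 (13.5%), led by Cpr76Ba (383) and the neighbours Cpr65Eb and Cpr65Ec (302), then Cpr51A. Neighbouring members of these families share peaks. The median longer gap was 2514 bp for receptor genes and 1768 bp for cuticular protein genes.

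Intergenic summits were rich in A and T as a group, though not each one. The printed mtSSB to tara and Cyt-c1L to eEF1gamma windows, at 55.4%, were below the territory. Within 50 bp of the summit 63.4% of bases were A or T, against 58.7% at 400 to 500 bp and 58.9% over the whole territory. The share was 56.3% at 120 to 220 bp on either side, so an A + T core sat between shoulders poorer in A + T than the territory. Peaks inside genes had nearly the same profile, with 64.3% in the core and 56.6% in the shoulders. Promoter peaks had a core of 63.7% but shoulders of 59.0%, falling to 55.1% at 400 to 500 bp.

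**Figure D4:**
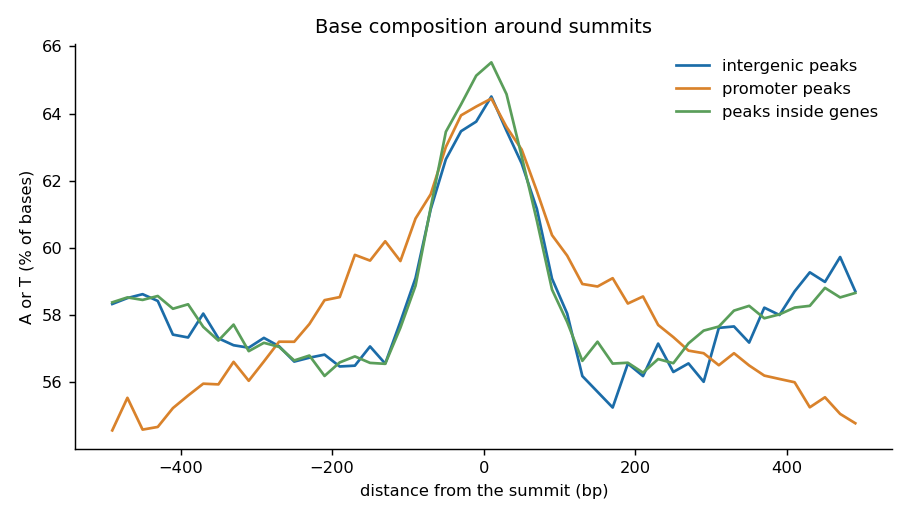
Percent of bases that are A or T (vertical axis) in steps of 20 bp against distance from the summit in bp, for intergenic peaks (n = 823), promoter peaks and peaks inside genes. All classes rise at the summit, and intergenic peaks and peaks inside genes share low shoulders near 56% on each side that promoter peaks lack.

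Of the 24 listed motifs the TATA box word TATAAA gained most at summits over all peaks. Among intergenic peaks 32.1% held it within 100 bp of the summit, 21.6% held it in the flanks 400 to 500 bp away, and 23.0% of 201-base windows tiled over the territory did. Over all peaks 33.5% held it at the summit and 20.4% in the flanks. The run of A was at 23.0% of intergenic summits and 20.8% of flanks. The rest of these 5 differed less: CGATA stood at 19.2% and 20.5%, TAATTA at 14.5% and 13.4%, and GATAAG at 8.38% and 7.65%. Some listed words were rarer at intergenic summits than in flanks. The CA repeat CACACA stood at 16.6% and 20.5%, and the E-box CAGCTG at 5.71% and 8.26%. CGATA, part of the DNA replication-related element, stood at 36.4% of promoter summits, and the full element TATCGATA at 2 intergenic summits (0.243%) against 6.77% of promoter summits. The 10 words of 7 bases that gained most over all peaks, led by TTTAAAA, consisted of A and T alone. TTTAAAA stood within 50 bp of 11.7% of intergenic summits and in 6.68% of their flanks. The higher A + T content at summits moves with these words, and its part in their counts was not tested.

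Words of insulator proteins, singled out after their values were seen, did not all move one way. The CTCF core AGGNGGCGC was within 100 bp of 19 intergenic summits (2.31%), in 4 flanks (0.486%) and in 0.311% of territory windows. The Su(Hw) core GCATACTTT was at 10 intergenic summits (1.22%), in no flank and in 0.518% of territory windows. In the replicates' own intergenic sets this core stood at 0.521% of summits and 0.174% of flanks in replicate 1, and at 1.37% and 0.686% in replicate 2. The ZIPIC word AGGGCTG stood at 10 intergenic summits (1.22%) and in 12 flanks (1.46%). Over all peaks the CTCF core stood at 1.19% of summits and the Su(Hw) core at 0.587%.

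A word with G and C stood out near intergenic summits: CAGTGCA. Within 150 bp it occurred at 161 of the 823 intergenic peaks (19.6%, interval 16.9 to 22.4). It occurred at 43 (5.22%) in flanks of the same length 550 to 700 bp away, and in 4.91% of 301-base windows of the territory. Of all 8192 words of 7 bases, each joined with its reverse complement, it had the largest difference between summit and flank counts within this window at intergenic peaks. The window was widened after the data were seen: within 50 bp the word was at 56 summits and 10 flanks, and TATTTAA and AAAAAAT had larger differences there. The next within 150 bp was CAGTGTA, at 106 summits and 19 flanks. Words that overlap it were also among the top 10, for instance TCAGTGC at 112 summits and 31 flanks.

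The word was less frequent in the other classes. It stood within 150 bp of 14.3% of peaks inside genes (interval 12.8 to 15.8) and of 7.85% of promoter peaks (6.74 to 9.07). Their flanks had 5.35% and 4.16%. In each replicate's own set it stood at more intergenic peaks than other peaks, 18.9% and 11.5% in replicate 1, and 16.8% and 11.0% in replicate 2. There the other peaks were pooled, so peaks inside genes were not compared on their own. Intergenic candidates outside the conservative set had it in 6.81% of summit windows and 5.73% of flanks. No test was made, because the word was found in these same peaks.

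The word did not mark the strongest sites. It was near 1 of the 15 strongest intergenic peaks in both replicates, the CG4004 to Paics peak printed above. Sorted by falling signal into groups of 206 or 205, intergenic peaks held it in 18.9%, 17.6%, 20.9% and 20.9%. It was in 19.0% of the intergenic peaks found in both replicates and 20.05% of the rest. Median signal was 102 with the word and 106 without it. It was rarer near protein-coding starts, in 6.84% of the 117 intergenic peaks at 500 to 1000 bp, and ranged between 18.8% and 25.4% in the bands beyond. Between divergent genes 13.2% of the intergenic peaks held it, between tandem genes 22.9% and between convergent genes 22.1%.

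Its position and direction were uneven. Of the 182 occurrences within 150 bp of intergenic summits, 136 (74.7%) had the summit on their 5′ side. The densest stretch was 50 to 100 bp past the summit along the strand of the word, with 72 occurrences, 87.5 per 1000 peaks. In the mirror stretch before the summit there were 10, or 12.2 per 1000 peaks. Peaks inside genes showed the same, with 77.2% of 351 occurrences on that side, and promoter peaks a smaller lean, 60.2% of 181.

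**Figure D5:**
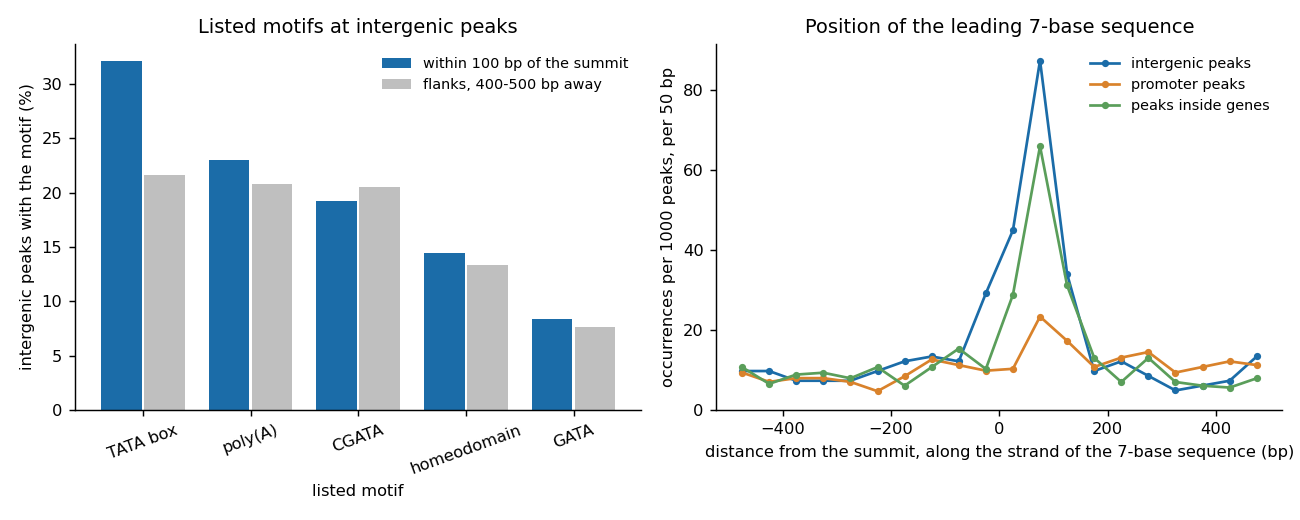
Left, percent of intergenic peaks (vertical axis) with each of 5 listed motifs within 100 bp of the summit (blue) and in flanks 400 to 500 bp away (grey). Right, occurrences of the leading 7-base word per 1000 peaks and 50 bp (vertical axis) against distance from the summit along the strand of the word, by class of peak; the maximum for intergenic peaks is 87.5 at 50 to 100 bp.

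The bases before the word were also uneven. Of the CAGTGCA occurrences in the territory within 150 bp of an intergenic summit, 58.6% had TTT at positions 7 to 5 before it, against 17.4% of the other occurrences in the territory. Single T shares at these positions were 73.5%, 78.5% and 71.3% near summits, against 39.5%, 41.7% and 39.9% elsewhere. The word with TTT at these positions stood within 150 bp of 102 intergenic peaks (12.4%), in 10 flanks (1.22%) and in 0.927% of territory windows. Peaks inside genes had it in 8.14% and promoter peaks in 2.52%.

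Most copies of the word had no peak. Of 7054 copies in the territory 181 (2.57%) lay within 150 bp of an intergenic summit. Of the 1301 copies with TTT before them 106 (8.15%) did, and of the 5753 without it 75 (1.30%) did. Counted against all intergenic candidates, 45.3% of the copies with TTT and 25.8% of those without lay within 150 bp of a candidate summit. The share of all territory bases that lie this near to 1 of the 27641 candidates was not computed. These 2 values therefore compare the copies with each other and not with the territory.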

How the data were processed

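Peak lists of 1 ChIP-seq group with 2 biological replicates were analysed. Per the labels, whole embryos 0 to 24 h old were used, and chromatin was sonicated to a size range of 200 to 800. The labels give the antibody as anti-GFP in the description and as CG14441 in the antibody field. The authors made the lists from the replicates' alignments and a control on dm6, neither of which was analysed here. No aligner or peak caller is named in the labels. The deposited signal is a score of the authors' peak caller on an unnamed scale. The deposited summit column holds bp from the peak start, of unit other. The deposited IDR columns hold −log10 values, and every peak of the conservative set had a global IDR of at most 0.01. The lists give no read counts, so depth is unknown, and exact Clopper-Pearson intervals (95%) cover counting error only. They treat peaks as independent, although neighbouring peaks can share a gap or overlap.

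Summits were placed against the Ensembl BDGP6.54 annotation and RefSeq's Release 6 (dm6) genome with Python 3.11.15, pandas 2.3.3, numpy 2.4.6, scipy 1.17.1 and matplotlib 3.10.9. A replicate's signal at a peak is that of the overlapping candidate in its ranked list whose summit is nearest, so overlapping peaks can share it. Gaps are the stretches between neighbouring protein-coding genes. Motifs were searched on both strands within 100 bp of the summit and in flanks 400 to 500 bp away, and every 7-base word within 50 bp. Scripts were checked on simulated data. The text names the 15 strongest peaks in both replicates, the 8 strongest inside non-coding RNA genes, the strongest at each other non-coding kind, the 6 gaps with most summits (1 of them is not reported here, and the next gap is given with the rest), the 5 farthest summits, the 3 nearest the limit, and up to 4 genes of each of 13 lists. Of 144 listed symbols 6 had no match. Members, lists and motifs were chosen with earlier results of these data known, and CAGTGCA was added after its counts were seen. Alternatives were other peak sets, distance limits, overlaps and windows.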

Additional observations from a re-analysis of the deposited data

How the results depend on the processing

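Among the main summary values the signal ratio has a direction, and intergenic peaks kept the lower median under all alternatives run for it. The others are counts, shares and a distance, and the territory shares beside them were not recomputed. A value counts as moved when it changed by more than the SD of the replicates' own sets, by over 1.5 times for the number of peaks, or out of its exact interval for the share in both replicates. By this, 33 values moved and 41 did not. Some moves follow from the setting itself, as with fewer peaks, another TSS limit or another window. The cause of the other moves was not tested. The count of 823 intergenic peaks was 364 in the stronger peaks of the set. The intergenic share (16.1%) was 14.8 to 15.3% in the replicates' own sets, 14.2% among stronger peaks, 19.4% with a limit of 250 bp, 13.8% with 1000 bp and 13.5% when genes of every type counted. The median TSS distance (4036 bp) was 3714 to 3836.5 bp, 3621, 2901.5, 5146.5 and 3835.5 bp under the same settings. The share at non-coding RNA genes (19.2%) was 19.1 to 23.0% in the own sets, 12.03% inside the genes and 24.1% within 1000 bp. The share in both replicates (48.5%) was 42.7% in the relaxed series set, 90.7% among stronger peaks and 40.6% with overlap of at least 50% of both peaks. The signal ratio (0.884) was 0.897 to 0.957 in the own sets and 0.928 with 250 bp. The TATAAA share (32.1%) was 32.1 to 33.3% in the own sets, 29.7% in the relaxed set and 19.0% within 50 bp. The divergent share (33.0%) was 34.7 to 35.3% in the own sets, 34.3% relaxed, 36.0% among stronger peaks, 34.5% with 250 bp and 30.6% with 1000 bp. Added after the data were seen, CAGTGCA (19.6%) stood at 16.8% in replicate 2's set, 15.3% within 100 bp and 6.80% within 50 bp. No paired analysis was possible because all samples belong to 1 group. With n = 2 the spread itself is poorly known, and the depth behind weak peaks is unknown.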
